A study of Mus musculus with 8 samples.

Results

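The genes described here encode splicing factors. They are all genes on the array whose symbol starts with Snrp, Srsf, Sfrs, Hnrnp, Hnrp, Sf3a or Sf3b. The rule found 48 genes among the 17711 named by a probe, and each gene was read from its probe with the highest mean over all 8 samples. Of the 48, the probes of 40 were detected (a detection p under 0.05) on at least 4 of the 8 arrays and were tested, together with all other genes that met this limit, 9494 in all.

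The samples came from the distal colon of 4 male wild-type C57BL/6 mice aged 10 to 12 weeks, and epithelium was cut out by laser capture microdissection. Surface epithelium gave 4 samples and crypt base epithelium 4, and each mouse contributed to both. The labels number the samples 1 to 4 within each region but do not state that a number marks a mouse, and same-numbered samples are called a pair below. RNA was amplified from these small cuts and measured on Illumina bead arrays. Values are log2 signals as deposited, already made equal in distribution between arrays. A log2 signal of 5.52 is called background, because as many values lay above it as had a detection p under 0.05, and near it a fold change is understated. A change is the surface value minus the crypt base value, and the number of arrays limits its precision.

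Splicing removes introns from pre-mRNA on the spliceosome, which is built from small nuclear ribonucleoproteins (snRNPs). Each snRNP of the main spliceosome carries a ring of Sm proteins around its RNA, apart from U6, which carries a ring of LSm proteins. The SF3a and SF3b complexes belong to the U2 snRNP and hold it on the branch point. SR proteins, named for their arginine and serine repeats, mostly favour the use of nearby splice sites, and hnRNP proteins coat the transcript and often oppose them. In the colon the crypt base holds stem cells and dividing cells, whose daughters mature into absorptive cells on their way to the surface.

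Markers matched the labelled regions. Of 10 tested surface colonocyte markers 9 rose at the surface, and of 6 tested crypt base and stem cell markers 6 fell. Lgr5, Ascl2, Ephb3, Myc and Krt20 were not detected on enough arrays to be tested. Smooth muscle markers had 10 of 11 members tested, a summed linear signal of 3400 to 16200 in surface samples and 8630 to 34300 in crypt base samples, and a median change of -0.82, with 0 members past the test. For leukocytes, where 6 of 9 were tested and Ptprc, Cd3g and Jchain were not detected, the sums were 1680 to 5410 at the surface and 1790 to 4550 at the crypt base. The 12 fibroblast markers, 1 higher and 1 lower, summed to 3300 to 3930 at the surface and 2810 to 4560 at the crypt base. For 9 endothelial markers, 1 of them lower, the sums were 1380 to 1730 at the surface and 1200 to 1550 at the crypt base. The 3 neuron and glia markers tested were dim, with sums of 144 to 172 at the surface and 155 to 219 at the crypt base. Of 9 general epithelial markers 6 rose and of 8 goblet cell markers 2 rose. Without the block the markers that rose numbered 6 for surface colonocytes, 3 for general epithelium and 1 for goblet cells, and 5 crypt base and stem cell markers fell. Cell division markers, 12 tested, summed to 1060 to 1840 at the surface and 2340 to 3450 at the crypt base, and 6 of them fell. The part of these cells in the values below was not tested. The sample surface 4 stood apart, where 199 probes lay more than 2 log2 units away from the remaining arrays' median, against 6 to 34 on each of the others. Of these 199 probes, 184 were lower in surface 4.

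Every splicing factor that passed the test was lower at the surface. Of the 40 tested, 11 fell and 0 rose in limma with the replicate number as a block, at an adjusted p under 0.05, and Srsf12 alone had a positive change at an unadjusted p under 0.05 (0.0365). The 11 that fell make up 27.5% of the 40, and over all 9494 genes tested 10.1% were lower and 12.1% higher at the surface. The 11 are the Sm genes Snrpd3, Snrpd2 and Snrpb, the SF3 genes Sf3a3, Sf3b5, Sf3b2 and Sf3a1, the SR genes Srsf6, Srsf1 and Srsf3, and Hnrnpab. Falls among them ranged from 1.24-fold for Srsf3 to 1.64-fold for Snrpd3. The median change of the 40 was -0.24, against -0.01 for all genes tested, and 31 of the 40 changes (77.5%) were below 0, against 52.2% of all genes. In tissue samples, fewer cells of a type and less RNA per cell cannot be told apart.

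The number of calls depended on single replicate numbers. Without the replicate block 7 of the 40 were called, where 6.1% of all genes were called lower. Leaving out replicate 1 ended every call across the table, with a lowest adjusted p of 0.05 in limma, 0 splicing factors called and 11 of them at an unadjusted p under 0.05. The count was 13 without replicate 2, 3 without replicate 3 and 1 without replicate 4, and the background shares of lower genes were then 12.1%, 4.26% and 2.31%. With the replicate number as a random block the count was 7 without surface 4, of which 6 were among the 11, against 12 with all samples. The background shares in these random-block fits were 5.76% without surface 4 and 11.3% with all samples.

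**Figure D1:**
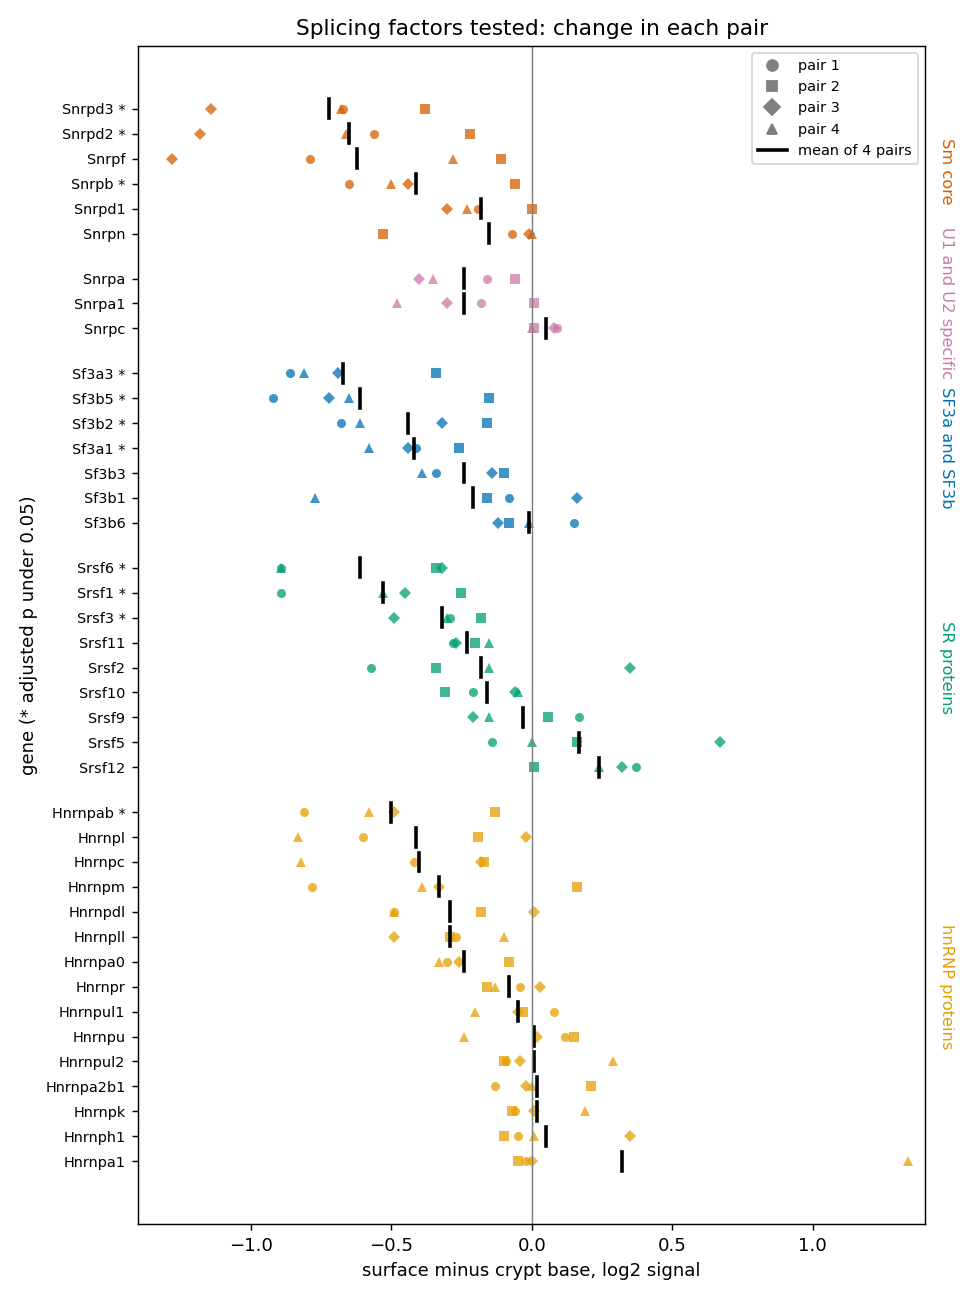
Each point is the surface minus crypt base difference in log2 signal of 1 pair (marker shape), black bars are means of 4 pairs, and colours mark the role classes of the 40 splicing factors tested. The 11 genes with an asterisk passed the test, which used these same differences, and all of their points lie below 0.

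**Figure D2:**
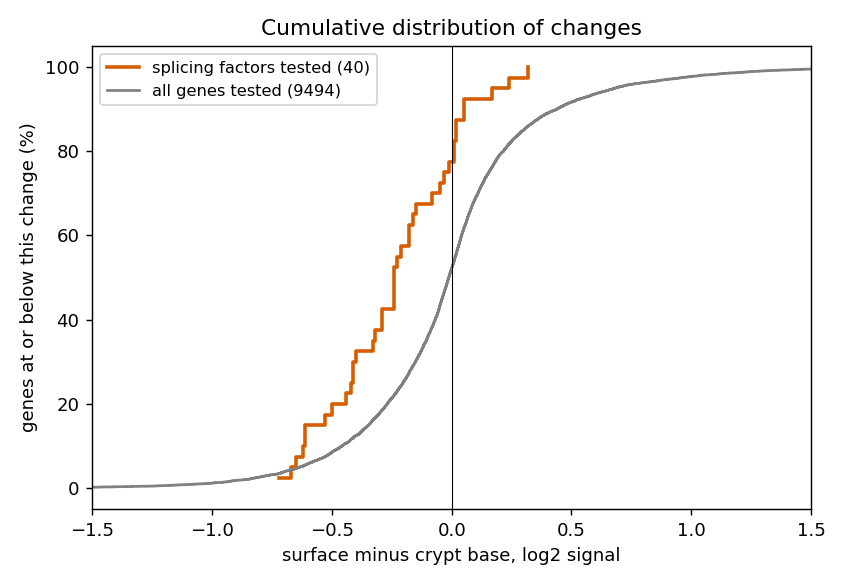
The curves give the percent of genes at or below each change (surface minus crypt base, log2) for the 40 splicing factors tested and for all 9494 genes tested. The splicing factor curve lies to the left, with a median of -0.24 against -0.01.

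Promoters are shown for the gene with the largest fall in each role class that had one and a single entry among RefSeq promoters of GRCm38.p6. The genes were chosen by their falls, and shared regulation was not tested. Each sequence covers 250 bases before and 50 after the annotated start, 5′ to 3′ on the strand of the gene. The positions are chr10:75517792-75518091 (plus strand) for Snrpd3, chr4:124714611-124714910 (plus strand) for Sf3a3, chr2:162931258-162931557 (plus strand) for Srsf6 and chr11:51606832-51607131 (minus strand) for Hnrnpab. Capitals mark matches, on either strand, to the CCAAT box (ATTGG), the Ets core (CCGGAAG), the GC box (GGGCGG), the E-box (CACGTG), the TATA box (TATAAA) or the palindrome of the factor NRF1. In Snrpd3 a GC box and a CCAAT box overlap.
Snrpd3: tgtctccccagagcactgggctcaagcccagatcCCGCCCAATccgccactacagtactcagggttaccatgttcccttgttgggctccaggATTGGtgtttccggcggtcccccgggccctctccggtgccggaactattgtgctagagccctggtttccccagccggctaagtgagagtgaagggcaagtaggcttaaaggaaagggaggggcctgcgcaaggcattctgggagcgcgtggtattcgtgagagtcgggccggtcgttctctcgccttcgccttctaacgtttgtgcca
Sf3a3: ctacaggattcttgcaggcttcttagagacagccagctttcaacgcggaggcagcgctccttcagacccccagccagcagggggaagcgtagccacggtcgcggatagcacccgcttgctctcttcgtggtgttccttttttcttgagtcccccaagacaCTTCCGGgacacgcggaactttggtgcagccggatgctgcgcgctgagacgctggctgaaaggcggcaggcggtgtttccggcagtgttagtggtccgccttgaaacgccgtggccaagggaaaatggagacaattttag
Srsf6: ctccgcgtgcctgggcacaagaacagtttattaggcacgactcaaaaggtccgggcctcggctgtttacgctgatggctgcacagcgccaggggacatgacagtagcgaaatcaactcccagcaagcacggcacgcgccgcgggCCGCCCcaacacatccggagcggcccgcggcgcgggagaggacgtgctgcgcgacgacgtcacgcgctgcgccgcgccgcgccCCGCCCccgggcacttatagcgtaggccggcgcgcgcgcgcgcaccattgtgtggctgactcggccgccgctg
Hnrnpab: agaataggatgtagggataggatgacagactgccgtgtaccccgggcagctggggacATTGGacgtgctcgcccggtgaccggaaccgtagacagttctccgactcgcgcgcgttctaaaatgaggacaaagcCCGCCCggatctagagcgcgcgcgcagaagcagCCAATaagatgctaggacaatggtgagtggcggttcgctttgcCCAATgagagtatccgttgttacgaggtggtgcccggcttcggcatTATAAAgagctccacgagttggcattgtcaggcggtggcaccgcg

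The letters searched were found as follows. Entries existed for 43 of the 48 genes, with 58 promoters, and for 9 of the 11 that fell. Counts out of 9 are of genes, while the percentages are of promoters. The CCAAT box lay in 5 of these 9 (Hnrnpab, Sf3b2, Snrpd3, Srsf1 and Srsf3) and in 48.3% of the 58 promoters, against 38.2% of 21262 promoters of protein-coding genes. The GC box lay in 6 of the 9 and in 65.5% of the 58, against 46.2%. The Ets core lay in 3 of the 9 (Sf3a1, Sf3a3 and Sf3b2) and in 31.0% of the 58, against 11.6%. The TATA box lay in 2 of the 9 (Hnrnpab and Srsf3) and in 12.1% of the 58, against 12.6%. An E-box lay in 0 of the 9 and in 12.1% of the 58, against 7.84%, and the NRF1 palindrome in 0 of the 9 and 1.72%, against 1.33%. Counted by gene, the CCAAT box, the GC box and the Ets core lay in 23, 30 and 14 of the 43. The TATA box, the E-box and the NRF1 palindrome lay in 7, 6 and 1. Median GC content was 60.2% in the 58 promoters and 56.3% in the 21262. A match is a string of letters and not a measured binding site.

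Among the Sm core genes, 3 of the 6 tested fell, against 10.1% of all genes tested. The other 3 also had negative changes, as did 52.2% of all genes tested. Without the replicate block 0 of the 6 passed, where 6.1% of all genes were called lower. Sm proteins B, D1, D2, D3, E, F and G form the ring on the snRNA. Snrpd3 (gene ID 67332), for Sm D3, had log2 signals of 8.22, 9.12, 8.43 and 8.31 in surface samples 1 to 4, against 8.89, 9.50, 9.56 and 8.99 in crypt base samples 1 to 4. Surface 2 was the high surface sample and lay above crypt base 1 and 4, so the groups overlapped although all 4 pairs were lower at the surface. The change was -0.72 ± 0.13 (SE, n = 4 pairs), which is 1.64-fold lower (adjusted p = 0.0164, and 0.0798 without the block). Snrpd2 (gene ID 107686), for Sm D2, had 8.61, 9.21, 8.79 and 8.73 at the surface, against 9.17, 9.43, 9.97 and 9.39 at the crypt base. Again surface 2 was high and overlapped the lowest crypt base sample. This gene fell by 0.65 on the log2 scale (SE 0.16, adjusted p = 0.0327, and 0.0566 without the block).

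Snrpb (gene ID 20638), for Sm B, had 6.76, 7.43, 7.41 and 7.38 at the surface, against 7.41, 7.49, 7.85 and 7.88 at the crypt base. Surface 1 lay far below the other surface samples, and the others reached the level of crypt base 1. Its change of -0.41 ± 0.11 passed narrowly (adjusted p = 0.0468, and 0.177 without the block), and its other detected probe, dimmer at a mean of 5.55, had a change of -0.17. Snrpf, for Sm F, had 6.88, 7.94, 7.06 and 7.61 at the surface, against 7.67, 8.05, 8.34 and 7.89 at the crypt base, where surface 2 lay within the range of the crypt base samples and the other surface samples below it. Its change of -0.62 ± 0.20 was as large as that of several called genes but did not pass (adjusted p = 0.0729, 95% interval -1.10 to -0.14). Snrpd1, for Sm D1, had a change of -0.18 at a mean signal of 5.71, close to background. Snrpn, an imprinted gene whose protein SmN replaces Sm B in neurons, had -0.15 (adjusted p = 0.385). The probes of Snrpe and Snrpg, for Sm E and Sm G, were detected on 1 and 0 arrays and were not tested.

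Pair 3 held the largest differences of the Sm class. Snrpd3, Snrpd2 and Snrpf had differences there of -1.14, -1.18 and -1.28. The median change of the Sm class was -0.61, -0.16, -0.79 and -0.39 in pairs 1 to 4. For the SF3 class it was -0.41, -0.16, -0.32 and -0.61, so pair 2 gave the smallest value in both. These are descriptions of 4 pairs, and the difference between the classes was not tested.

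The proteins specific to the U1 and U2 snRNPs showed smaller differences, and 0 of 3 tested passed, with a smallest unadjusted p of 0.0338 in limma. Snrpa, for the U1 A protein that binds a loop of U1 RNA, had 6.03, 6.01, 5.74 and 5.99 at the surface, against 6.19, 6.07, 6.14 and 6.34 at the crypt base. Every surface sample lay below every crypt base sample, a pattern that 9.59% of all genes tested showed, and the change was -0.24 ± 0.09 (adjusted p = 0.104). Snrpa1, for the U2 A′ protein, had a change of -0.24 (adjusted p = 0.146) and Snrpc, for the U1 C protein, one of 0.05 (adjusted p = 0.703). All were dim, with mean signals of 6.06, 5.75 and 5.51. The probe of Snrpb2, for the U2 B″ protein, was detected on 0 arrays.

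In the SF3 complexes 4 of the 7 genes tested fell (57.1%), against 10.1% of all genes tested. The regions did not overlap in any of these 4, with the surface lower, as in 11 of the 40 splicing factors tested. Over all genes tested that share was 9.59%. The calls and the overlap were read from the same values. Sf3a3 (gene ID 75062), a subunit of SF3a, had 8.59, 8.94, 8.77 and 8.58 at the surface, against 9.45, 9.28, 9.46 and 9.40 at the crypt base. The highest surface sample, 8.94, lay below the lowest crypt base sample, 9.28. Its change of -0.67 ± 0.11 (1.60-fold lower, adjusted p = 0.0123) also passed without the block (0.0071), and its second probe had -0.43. Sf3b5 (gene ID 66125), a small subunit of SF3b, had 8.23, 8.55, 8.42 and 8.32 at the surface, against 9.15, 8.70, 9.15 and 8.97 at the crypt base. Pair 2 was again the closest, with a difference of -0.15. The fall was 1.53-fold, with a change of -0.61 ± 0.13 (adjusted p = 0.0260).

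Sf3b2 (gene ID 319322), another SF3b subunit, had 8.70, 9.06, 8.99 and 8.88 at the surface, against 9.38, 9.22, 9.31 and 9.48 at the crypt base. It fell by 0.44 on the log2 scale (SE 0.11, adjusted p = 0.0369). Sf3a1 (gene ID 67465), which bridges SF3a to the U2 snRNP, had 7.72, 7.91, 8.01 and 7.96 at the surface, against 8.13, 8.18, 8.44 and 8.54 at the crypt base. The pair differences ranged from -0.58 to -0.26, with a change of -0.42 ± 0.08 (adjusted p = 0.0197). Its dimmer probes had -0.24 and -0.09, and with all detected probes averaged the gene did not pass (adjusted p = 0.106).

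The remaining SF3 genes did not pass. Sf3b3, a large scaffold subunit, had a change of -0.24 ± 0.09 (adjusted p = 0.0954). Sf3b1, the subunit that grips the branch point and is mutated in blood cancers, had a probe near background with 6.01, 5.88, 5.98 and 5.21 at the surface, against 6.09, 6.03, 5.82 and 5.98 at the crypt base. Only surface 4 was low, and it lay under background, so the change of -0.21 ± 0.16 (adjusted p = 0.382) rests on that sample: without replicate 4 the adjusted p was 0.919. Sf3b6, whose protein touches the branch point adenosine, had -0.01 at a mean of 5.58. The probe of Sf3a2 was detected on 2 arrays and was not tested.

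**Figure D3:**
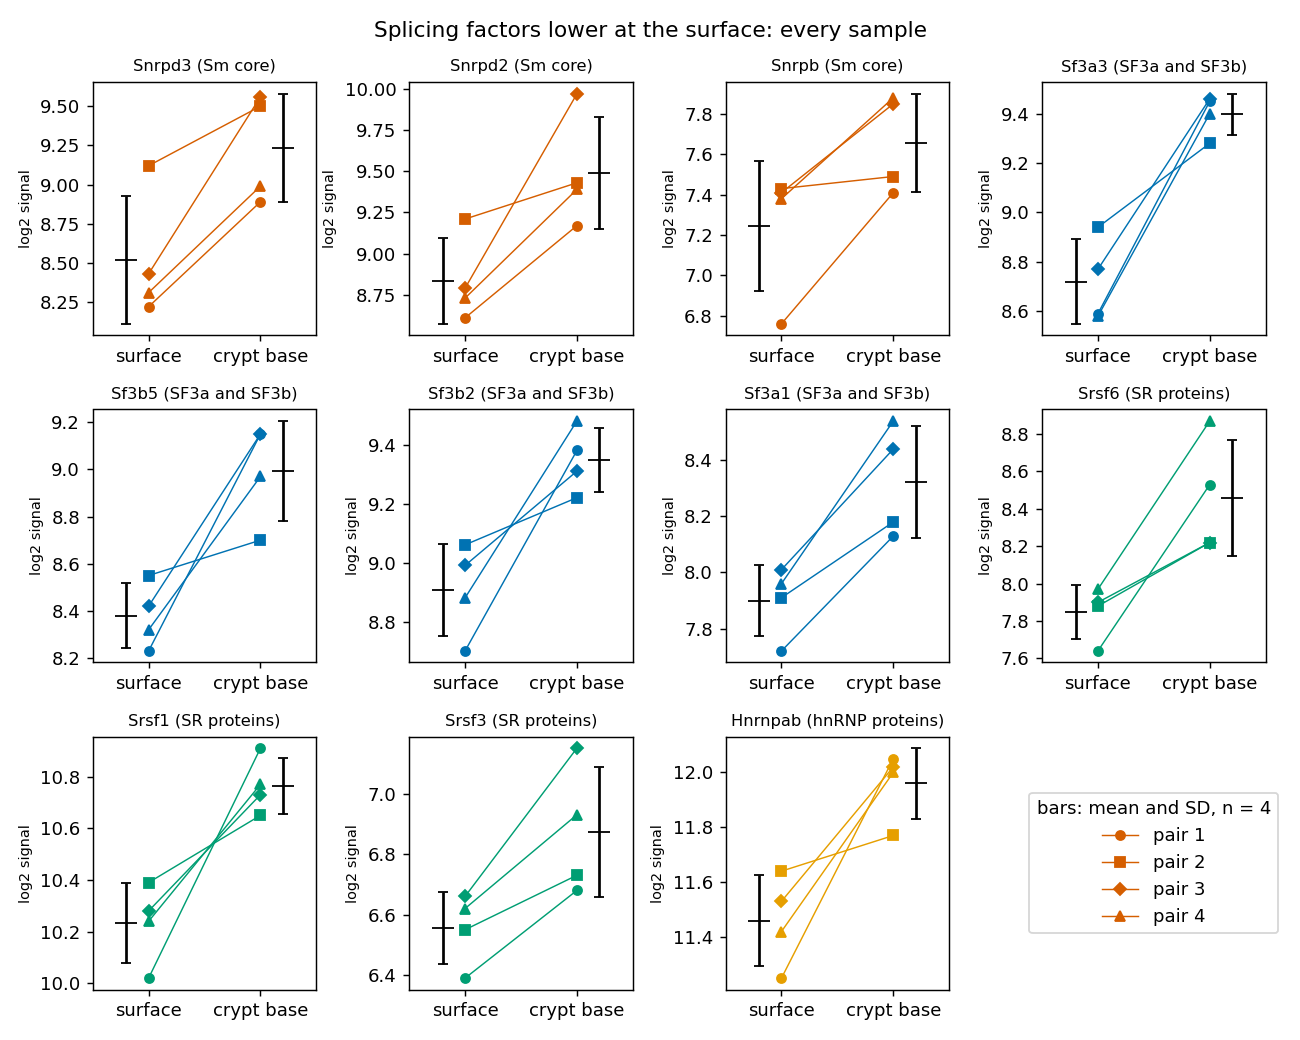
Points are log2 signals of the 11 splicing factors that fell, in 4 surface samples (left) and 4 crypt base samples (right), with lines joining same-numbered samples and bars for mean and SD. Every line runs lower on the surface side, and for 10 of the 11 genes the line of pair 2 is the flattest. The genes were chosen by a test on these same values.

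Of the SR protein genes 3 of 9 fell (33.3%) and 0 rose, against 10.1% lower and 12.1% higher among all genes tested. In 3 of the 9 every surface sample lay below every crypt base sample, as in 9.59% of all genes tested. Srsf6 (gene ID 67996), which regulates alternative exons, had 7.64, 7.88, 7.90 and 7.97 at the surface, against 8.53, 8.22, 8.22 and 8.87 at the crypt base. The differences were -0.89 in pairs 1 and 4 and -0.34 and -0.32 in pairs 2 and 3, and the regions did not overlap. The change was -0.61 ± 0.13 (1.53-fold lower, adjusted p = 0.0259). Srsf1 (gene ID 110809), the founding SR protein, had 10.02, 10.39, 10.28 and 10.24 at the surface, against 10.91, 10.65, 10.73 and 10.77 at the crypt base. Here too the regions were separate, with a change of -0.53 ± 0.12 (1.44-fold lower, adjusted p = 0.0264).

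Srsf3 (gene ID 20383), a small SR protein that also takes part in mRNA export, had 6.39, 6.55, 6.66 and 6.62 at the surface, against 6.68, 6.73, 7.15 and 6.93 at the crypt base. Its change of -0.32 ± 0.08 (adjusted p = 0.0428, and 0.125 without the block) was close to that of its other detected probes, -0.35 and -0.27. Of 13 tested splicing factors with more than 1 detected probe, 1 had probes of opposite sign (Hnrnph1, 0.05 for the probe used and -0.07 to 0.21 for the others). Of the 5 genes among these that fell, 0 did, and Snrpb and Sf3a1 had a probe with a much smaller change.

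The brightest SR probe did not change detectably. Srsf2, known for binding exonic enhancers, had 10.80, 10.85, 11.41 and 10.78 at the surface, against 11.37, 11.19, 11.07 and 10.93 at the crypt base. Surface 3 was the highest of all 8 samples while the other surface samples were the lowest, giving a change of -0.18 ± 0.15 (adjusted p = 0.453, 95% interval -0.55 to 0.19). Srsf11, Srsf10 and Srsf9 had changes of -0.23, -0.16 and -0.03, and a dimmer probe of Srsf10, at a mean of 6.00, had -0.50.

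Only Srsf5 and Srsf12 of the SR genes had positive changes. Srsf5, first described as a gene induced in regenerating rat liver, had 9.37, 9.05, 9.35 and 9.09 at the surface, against 9.51, 8.89, 8.69 and 9.08 at the crypt base. The regions overlapped and the change of 0.17 ± 0.14 did not pass (adjusted p = 0.436), while its dimmer probe had 0.37 and was higher at the surface in 4 of 4 pairs. Srsf12 had 5.89, 5.60, 5.71 and 5.79 at the surface, against 5.53, 5.58, 5.39 and 5.55 at the crypt base, all close to background. Every surface sample was higher, though the lowest, 5.60, lay only just above the highest crypt base sample, 5.58. All 4 pairs were higher at the surface, as in 21.6% of all genes tested. The change of 0.24 ± 0.09 did not pass (adjusted p = 0.110).

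The hnRNP genes were the largest class, with 19 genes. Of the 15 tested 1 fell (6.67%), beside 10.1% of all genes tested, a difference too small to read from 15 genes. Hnrnpab (gene ID 15384), an RNA-binding protein of the A/B type, had 11.25, 11.64, 11.53 and 11.42 at the surface, against 12.05, 11.77, 12.02 and 12.00 at the crypt base. The regions did not overlap, the change was -0.50 ± 0.12 (1.42-fold lower, adjusted p = 0.0331), and its second probe had the same change of -0.50 at a mean signal of 6.43. Hnrnpl, which binds CA repeats, had 8.47, 8.71, 8.86 and 8.54 at the surface, against 9.07, 8.90, 8.88 and 9.37 at the crypt base. Hnrnpc, which binds uridine tracts, had 10.91, 10.95, 11.04 and 10.74 at the surface, against 11.33, 11.12, 11.22 and 11.56 at the crypt base. Both were lower at the surface with no overlap, a pattern that 9.59% of all genes tested showed. Their changes were -0.41 ± 0.15 and -0.40 ± 0.13, and neither passed (adjusted p = 0.0979 and 0.0729). In the fit with the replicate number as a random block both passed (adjusted p = 0.0445 and 0.0274). Further probes of Hnrnpc had -0.40 and -0.16, and that of Hnrnpl -0.19.

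Further hnRNP genes ranged widely. Hnrnpm, Hnrnpdl, Hnrnpll and Hnrnpa0 had changes of -0.33, -0.29, -0.29 and -0.24, with adjusted p values of 0.173, 0.118, 0.0665 and 0.0769. The second probe of Hnrnpll, detected on 8 arrays at a mean of 6.02, had a change of 0.0. With its detected probes averaged, Hnrnpll had an adjusted p of 0.207 in limma. Hnrnpul2, at a mean signal of 8.36, had a change of 0.01 with a 95% interval of -0.22 to 0.25. The other 7 were Hnrnpr, Hnrnpul1, Hnrnpu, Hnrnpa2b1, Hnrnpk, Hnrnph1 and Hnrnpa1, dim probes with means from 5.63 to 6.74. Changes of the first 6 lay between -0.08 and 0.05. Hnrnpa1, whose protein often opposes SR proteins, had 6.38, 6.30, 6.19 and 6.95 at the surface, against 6.40, 6.35, 6.18 and 5.61 at the crypt base. Its change of 0.32 ± 0.25 (adjusted p = 0.414) came from pair 4, where the difference was 1.34, while pairs 1 to 3 were within 0.05 of 0. The probes of Hnrnpa3, Hnrnpd, Hnrnpf and Hnrnph2 were detected on 0 to 2 arrays and were not tested.

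Calls lay mostly among bright probes. Of 21 splicing factors with a mean log2 signal of at least 7, 10 fell (47.6%), against 17.9% of all 3730 genes as bright. Of the 19 under 7, 1 fell (5.26%), against 5.1% of all 5764 such genes. Median changes were -0.41 for the bright splicing factors and -0.05 for all bright genes, and -0.08 and -0.01 for the dim ones. This limit was chosen after the data were seen. By class, the bright genes that fell were 3 of 4 Sm, 4 of 4 SF3, 2 of 6 SR and 1 of 7 hnRNP genes, and 0 bright probes were among the U1 and U2 proteins. A dim probe does not show that its gene was unchanged.

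**Figure D4:**
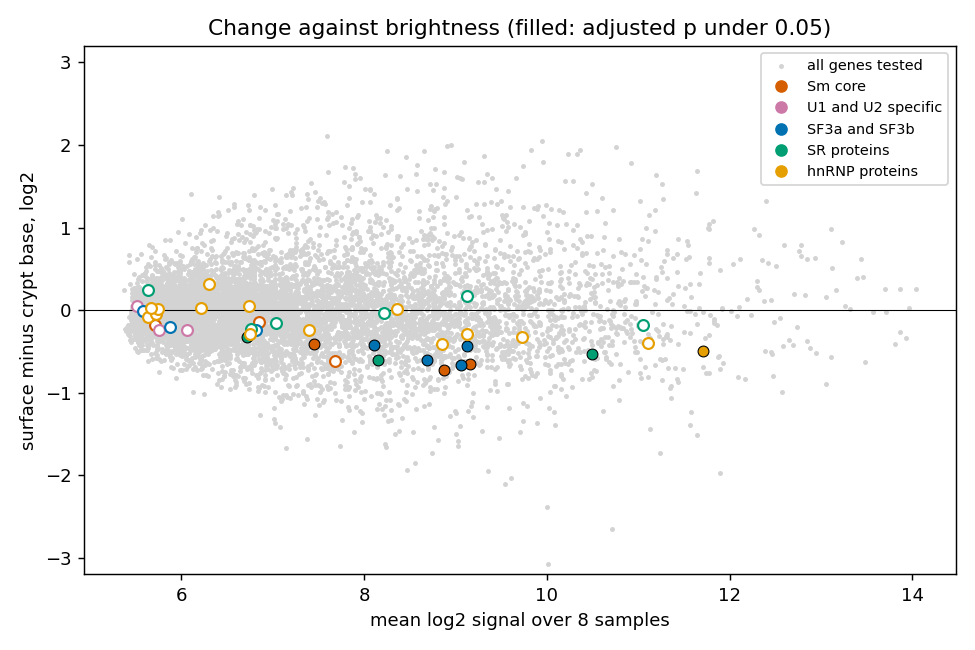
Each point is a gene, with its mean log2 signal over 8 samples on the horizontal axis and its change (surface minus crypt base, log2) on the vertical axis. Coloured points are the 40 splicing factors tested, filled where the adjusted p was under 0.05, and 10 of the 11 filled points lie at a mean of at least 7.

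The falls were present in each pair and smallest in pair 2. Over the 40 genes tested, 34, 32, 29 and 33 were lower at the surface in pairs 1 to 4, where 52.1%, 52.2%, 47.2% and 50.8% of all genes were lower. The median differences were -0.28, -0.12, -0.20 and -0.29. Of the 11 genes that fell, 10 had their smallest difference in pair 2. The median difference of the cell division markers was -0.65, -0.17, -0.52 and -0.52 in the same pairs, and that of smooth muscle markers -0.92, -1.48, 0.25 and -1.09. Surface colonocyte markers had medians of 1.96, 1.12, 2.25 and 2.00, also smallest in pair 2, while crypt base and stem cell markers had -1.29, -0.63, -0.47 and -0.99, smallest in pair 3. Their part in the splicing factor values was not tested. In all 4 pairs 22 of the 40 were lower and 1 was higher, where 22.1% of all genes were lower in all pairs and 21.6% higher.

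Other genes of the splicing machinery were read from 9 lists, and 117 genes outside the families above were tested. Of these 16 fell (13.7%) and 4 rose, with a median change of -0.14, beside 10.1% of all genes that fell. Genes of snRNP assembly and import had 5 of 15 lower and 0 higher. Prmt5, which methylates Sm proteins, had 7.06, 7.66, 7.42 and 7.33 at the surface, against 8.51, 7.95, 8.46 and 8.27 at the crypt base, a change of -0.93 ± 0.18 (adjusted p = 0.0199). Clns1a, the pICln chaperone that presents Sm proteins to that enzyme, had 7.79, 8.45, 8.12 and 8.05 at the surface, against 8.55, 9.15, 8.84 and 8.77 at the crypt base. It fell by 0.73 on the log2 scale (SE 0.07, adjusted p = 0.00739), about as much in each pair. Also lower, and named after their values were seen, were Smn1, Gemin4 and Ddx20 of the SMN complex, which loads the Sm ring, with changes of -0.70, -0.56 and -0.54.

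Among LSm genes 3 of 11 fell and 1 rose. Lsm7 and Lsm6, of the ring on U6, had changes of -0.96 ± 0.17 and -0.75 ± 0.15 (adjusted p = 0.0160 and 0.0214). Lsm14b, an RNA granule protein and not a member of that ring, rose by 0.37 ± 0.10 (adjusted p = 0.0463). Of 17 Prp and tri-snRNP genes 1 fell: Prpf19, a ubiquitin ligase needed to activate the spliceosome, had 9.79, 9.79, 9.64 and 9.52 at the surface, against 11.04, 10.51, 10.73 and 10.62 at the crypt base. That change of -1.04 ± 0.11 (adjusted p = 0.00739) was in all 4 pairs. The 10 U2 auxiliary and branch point factors had 2 lower, U2af1, which reads the 3′ splice site, by -0.51 ± 0.11, and the helicase gene Dhx15 by -0.30 ± 0.07 (adjusted p = 0.0266 and 0.0371). Neither of these genes passed without the block (adjusted p = 0.0687 and 0.116).

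The lists with kinases, later steps and regulators were mixed. Of 11 SR kinases and SR-related genes 3 fell and 1 rose, with changes of -0.47 ± 0.12 for Luc7l, a U1-associated factor, -0.45 ± 0.09 for Srrm1, a coactivator, and 0.44 ± 0.10 for the kinase gene Dyrk1a. Without the block 1 of the list was lower, and Luc7l and Srrm1 did not pass (adjusted p = 0.0537 and 0.0640). Among 15 genes of the catalytic step and the complex around Prpf19, 0 fell in limma and Syf2 rose by 0.46 ± 0.10 (adjusted p = 0.0227). Of 27 other splicing regulators 2 fell and 1 rose. Syncrip, which encodes hnRNP Q, had a change of -0.74 ± 0.09 (adjusted p = 0.00860), Ptbp1, the polypyrimidine tract protein hnRNP I, one of -0.62 ± 0.17 (adjusted p = 0.0474), and Celf1 rose by 0.60 ± 0.12 (adjusted p = 0.0219). In the exon junction complex 0 of 6 passed, and among the genes named Snrnp 0 of 5.

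**Figure D5:**
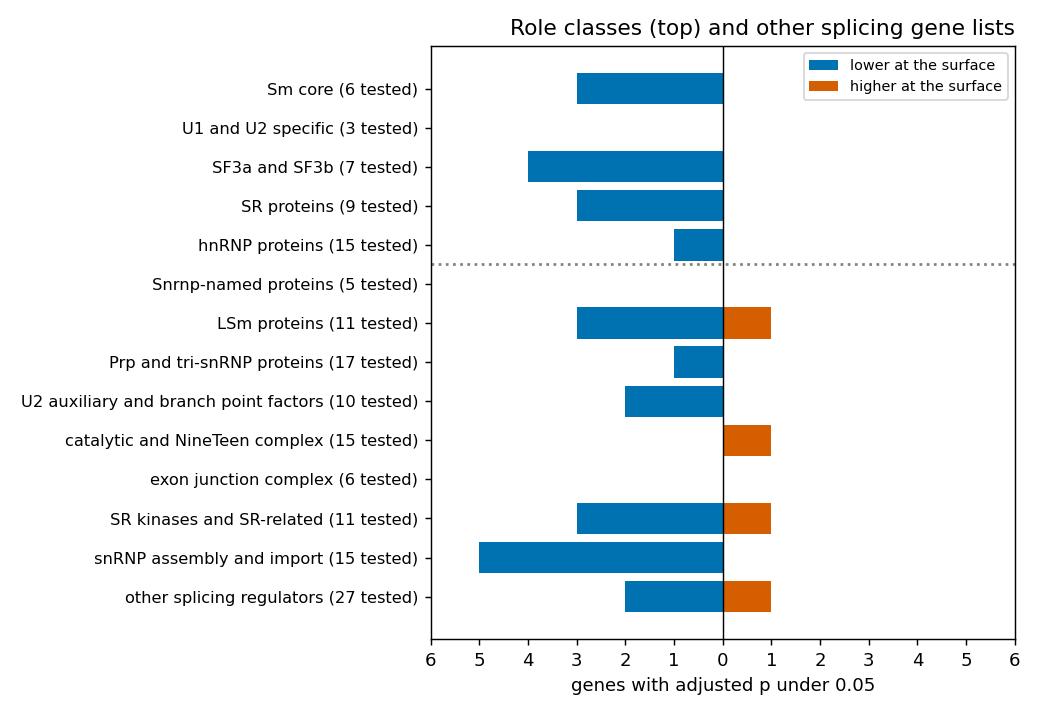
Bars count genes with an adjusted p under 0.05, to the left for those lower and to the right for those higher at the surface, in the 5 role classes of the splicing factors (above the dotted line) and in the 9 other lists. The SF3 class has 4 of 7 lower, snRNP assembly and import 5 of 15, and the higher genes are 1 each in 4 of the other lists.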

How the data were processed

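The 8 samples were measured on Illumina bead arrays, and log2 signals were used as deposited. The submitters' processing notes name GenomeStudio, and the sources used here do not give the normalization step. Across the 8 columns, 99.0% of ranks lay within 0.01. Of the detection p-values deposited by the authors, only the count of arrays under 0.05 entered. The 8 signal columns beside them match no label and were not used, though each equalled 1 array within 1e-06.

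Probes were named from the platform annotation and gene IDs: 29976 of 46632 had 1 symbol, 10 several and 16646 none. The regions were compared in limma 3.58.1 under R 4.3.3 (lmFit and eBayes, replicate number as a fixed block, two-sided, Benjamini-Hochberg adjustment over 9494 genes, threshold 0.05), checked on simulated data. Residual and prior degrees of freedom were 3 and 3.09. Random blocks used statmod 1.5.0. Intervals (95%) come from the same fit.

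Values in every sample are given for the splicing factors past the threshold and the brightest of each role class. From each other list up to 2 genes a direction were named, and Smn1, Gemin4, Ddx20 and Srpk1 were added after their values were seen. Of these lists, values in every sample are given for Prmt5, Clns1a and Prpf19 alone. Values of Snrpf, Sf3b1, Srsf5, Srsf12, Hnrnpl, Hnrnpc and Hnrnpa1 were added after their values were seen. The members, lists and rules were chosen with earlier results of these data known.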

Additional observations from a re-analysis of the deposited data

Results flagged for a closer look

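In 4 of 80 groups of 4 samples of a splicing factor, a sample lay far from the other 3, and chance gives about 1 in 20. Sf3b1 had a log2 signal of 5.21 in surface 4, against 5.88 to 6.01 in the other surface samples. Snrpa had 5.74 in surface 3, against 5.99 to 6.03. Snrpb had 6.76 in surface 1, against 7.38 to 7.43. Srsf2 had 11.41 in surface 3, against 10.78 to 10.85. The 4 lie in 3 different surface samples and in 0 crypt base samples.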

How the results depend on the processing

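Genes called higher and lower at the surface numbered 688 and 579 without the replicate block (no replicate block), against 1147 and 963 with it, and the splicing factors that fell numbered 7, against 11. Snrpb, Snrpd2, Snrpd3 and Srsf3 were not called then. With each replicate number left out in turn, the counts ranged from 0 to 1157 genes higher, 0 to 1146 lower, 0 to 13 splicing factors lower, 0 to 22 other splicing genes lower and 0 to 4 higher. Without replicate 4 only Sf3a3 was still called. Without surface 4 and with a random block in place of the fixed one, an alternative chosen after seeing the data, the counts were 670 and 547 genes and 7 splicing factors (6 of the 11, and Hnrnpll), against 1163 and 1073 genes and 12 splicing factors in the random-block fit of all samples. Under the other alternatives (random block, no filter, detection on all 8 arrays, cyclic loess, median centring, a floor at background, averaged probes and an intensity trend) 9 to 12 splicing factors fell. Their median change lay between -0.29 and -0.18 under every alternative run, and 0 rose. Snrpb was lost under 4 of these alternatives and Srsf3 under 2. The 11 genes that fell kept their sign throughout. As each was lower at the surface in every pair, leaving out a replicate number or the block could not change that sign. Deviations from group means, over genes, correlated at r = 0.45, 0.39, -0.04 and 0.48 for samples sharing the numbers 1, 2, 3 and 4, and at -0.49 to 0.31 for unlike numbers. Surface 1, 2 and 4 correlated best with their own number and surface 3 did not, so the check left the pairing unsettled. A slide block and a fresh background correction with normalization were not run, as no slide or raw signal was used here. Probes near background, at a log2 signal of 5.52, limit what can be seen for the dim genes.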
